A study of Mus musculus with 12 samples.

Results

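The 9 genes described here write, maintain, erase or read DNA methylation, and were followed across normal mouse lung and tumors of a mouse lung cancer model by poly-A RNA sequencing. They were chosen by gene symbol, and all 9 were found among the 30399 genes of the deposited table. They are the methyltransferases Dnmt1, Dnmt3a and Dnmt3b, the hemimethylated-DNA binding proteins Uhrf1 and Uhrf2, the dioxygenases Tet1, Tet2 and Tet3, and the methyl-CpG reader Mbd2. All 9 passed the filter on low values (a mean of at least 1 over the 12 samples). The series holds 5 samples labelled normal lung and 7 labelled tumor, from a mouse model in which CRISPR/Cas9, a nuclease that cuts chosen genes so that faulty repair disables them, is given without a virus. The labels give no targeted gene, strain, age or treatment for any sample, and do not say whether the normal lungs came from edited mice. Tumor titles carry 4 distinct numbers, namely 153 for tumor 1, 156 for tumor 2, 159 for tumors 3 and 4, and 201 for tumors 5, 6 and 7. The titles of tumors 3 to 6 carry the Spanish word for lung and those of tumors 1 and 7 the word for trachea, while that of tumor 2 gives no site. No sample is labelled normal trachea, so tumors 1 and 7 were also compared with normal lung. The labels do not say what the numbers stand for, so tumors that share a number may not be independent of each other. The p-values therefore measure the spread between these samples, which may be partly technical.

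In mammals, methyl groups sit mostly on cytosines of CpG dinucleotides, where dense methylation of a promoter goes with silencing. Dnmt3a and Dnmt3b place methyl groups on unmethylated DNA, while Dnmt1, brought to freshly copied DNA by Uhrf1, restores the pattern on the new strand after replication. Tet proteins oxidise methylated cytosine as a step toward its removal, and Mbd2 carries the NuRD remodelling and deacetylase complex to methylated sites. Small cell lung carcinoma, the human tumor that neuroendocrine mouse lung tumors are used to model, divides fast, and Uhrf1 and Dnmt1 are among the genes transcribed in S phase.

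Values are normalized counts, that is reads per gene divided by a size factor for the sample, and they are not corrected for gene length. The normal lung libraries held 11126432 to 17032234 reads assigned to genes and the tumor libraries 13093843 to 24217633, and 3 reads correspond to at most 4.85 normalized counts. Every library value of the 9 genes lay above that floor, which covers counting error only. The tissue labels were checked against marker genes. All 6 lung epithelium markers, all 6 endothelium markers and all 6 leukocyte markers analysed fell in tumors, and all 6 neuroendocrine markers rose. The summed level of the neuroendocrine markers was 167 to 197 normalized counts in normal lung and 23106 to 107256 in tumors. Lung epithelium markers summed to 230552 to 438861 and 264 to 2714, endothelium markers to 61763 to 71455 and 2409 to 7380, and leukocyte markers to 84100 to 164150 and 379 to 12489. Among these markers Cldn18 was at 0 in 2 tumors and Cd3e in 3. In bulk tissue, fewer cells of a type and less RNA per cell cannot be told apart, and the part of cell composition in the results below was not tested.

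Of the 9 genes, 5 rose in tumors at an adjusted p under 0.05 by limma (Dnmt1, Dnmt3a, Uhrf1, Tet1 and Tet3), where 31.4% of the 23674 genes tested did so. Mbd2 was the 1 gene that fell, where 30.1% of all genes did. Dnmt3b, Uhrf2 and Tet2 did not pass the test. When the log2 fold change also had to reach 1 in size, 4 were higher and 1 was lower, against 24.0% and 24.5% of all genes. The lower gene was Mbd2, which fell short of that size with all libraries scaled to the same total (-0.90), in edgeR (-0.96) and without tumor 2 (-0.97). The values of all 7 tumors lay above all 5 normal lungs for Dnmt1, Dnmt3a, Uhrf1 and Tet1, an order found in 20.1% of all genes, and below them for Mbd2, found in 18.4%. The median log2 fold change was 0.72 over the 9 genes and 0.04 over all genes tested. All fold changes were computed on log2(value + 1).

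**Figure D1:**
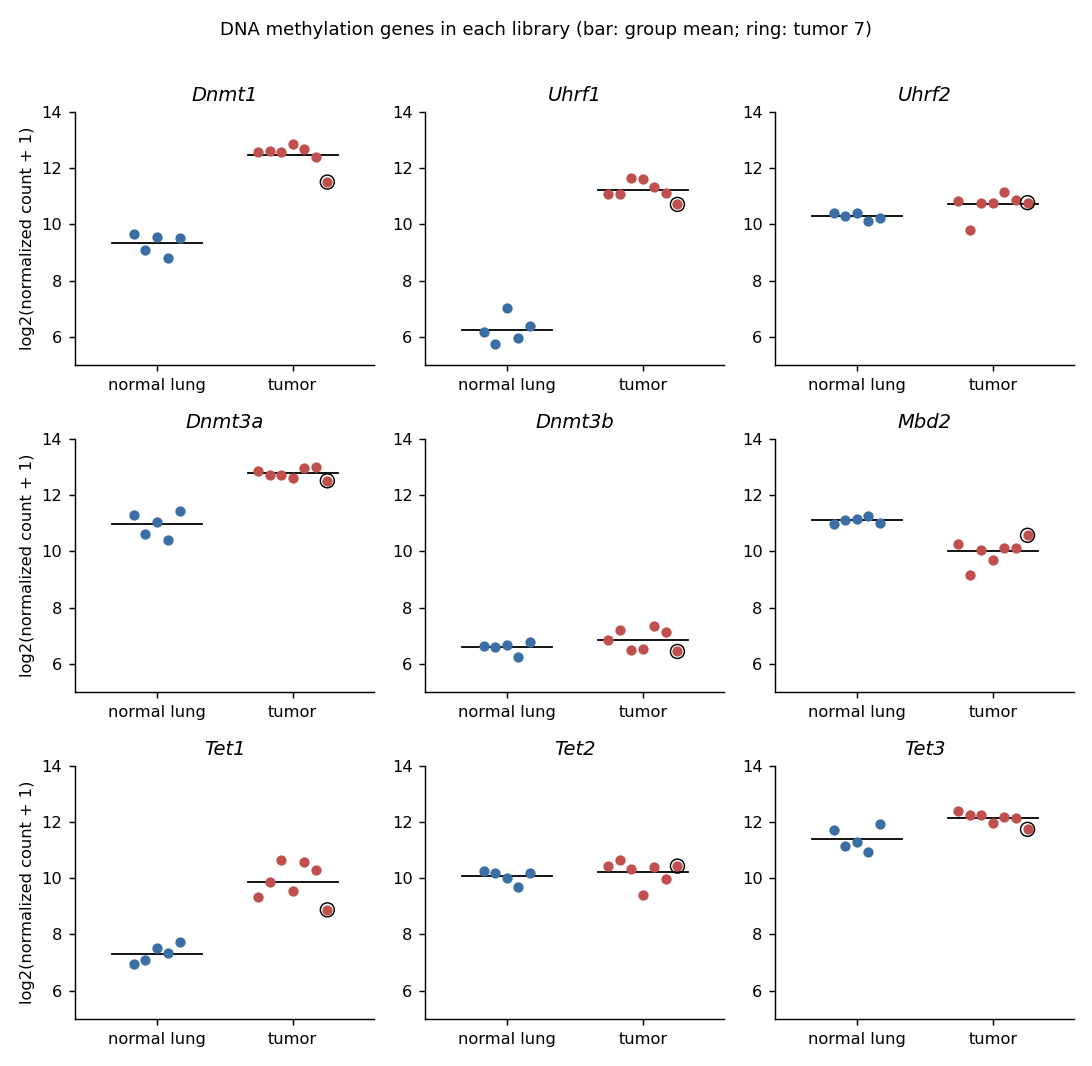
Each panel plots log2(normalized count + 1) of one gene for the 5 normal lungs (blue) and the 7 tumors (red), with the group mean as a bar and tumor 7 ringed. Dnmt1, Uhrf1, Dnmt3a and Tet1 show tumors above all normal lungs and Mbd2 shows them below, while the groups overlap for Uhrf2, Dnmt3b, Tet2 and Tet3.

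The maintenance pair came first. Uhrf1 (ENSMUSG00000001228), the protein that recognises hemimethylated CpGs and recruits Dnmt1, stood at 70.9, 52.7, 129, 62.1 and 82.8 normalized counts in the normal lungs, in order of their numbers. Across tumors it ran from 1671 in tumor 7 through a median of 2193 to 3216 in tumor 3. The lowest tumor was thus far above normal lung 3, the highest of its group, and tumors 3 and 4, which share a title number, were the highest pair. Uhrf1 rose by 4.96 log2 units (SE 0.23, adjusted p = 1.69e-09), a 31.2-fold difference. Of the 23674 genes tested, 572, itself included, had a fold change at least as high.

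Dnmt1 (ENSMUSG00000004099), the maintenance methyltransferase itself, measured 801, 546, 743, 450 and 724 normalized counts in the normal lungs, in order. In tumors the lowest was 2897 in tumor 7, the median 6147 and the highest 7389 in tumor 4. Tumor 7 stood apart below the other 6 tumors, which began at 5419, but it was still above every normal lung. Dnmt1 rose by 3.13 (SE 0.22, adjusted p = 7.03e-08), an 8.78-fold difference, and by 3.29 when tumor 7 was left out.

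Uhrf2 (ENSMUSG00000024817), the paralog of Uhrf1 that binds similar DNA but is not known to replace it in maintenance, measured 1339, 1247, 1353, 1105 and 1198 normalized counts in the normal lungs, in order. Its tumor values ran from 891 in tumor 2 through a median of 1746 to 2281 in tumor 5. Tumor 2 was below all normal lungs and the other 6 tumors were above them. The log2 fold change of 0.42 (SE 0.19, 95% interval 0.01 to 0.84, adjusted p = 0.0727) did not pass the test. That call depended on tumor 2 and on the method. In limma without tumor 2 the log2 fold change was 0.57 (adjusted p = 9.49e-04). With tumor 2 kept, Uhrf2 also passed in edgeR on the recovered reads of 11 samples (0.55, adjusted p = 0.0297). It passed as well in limma with all libraries scaled to the same total (0.63, adjusted p = 0.0129). In limma with tumors of one title number averaged it was weaker (0.30, adjusted p = 0.270), and likewise with them treated as correlated (0.37, adjusted p = 0.132).

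The promoters of Uhrf1, Uhrf2 and Dnmt1 are shown as a description, and were chosen with the expression results known. Any part of these sequences in those results was not tested. The sequences are from RefSeq (build GRCm38.p6), whose table held 13 starts for 8 of the 9 genes. The 250 bases before each start were searched on both strands for 4 spellings of the E2F element, TTTGGCGC, TTTCCCGC, TTTCGCGC and TTTGCCGC. E2F factors drive genes of the S phase, and a spelling match is a description of letters, not a binding site. Capitals mark the match. The Uhrf1 window lies on the plus strand at chr17:56304063-56304312, just before the downstream of its 2 starts, and holds no annotated exon. The Uhrf2 window lies on the plus strand at chr19:30030263-30030512 and also holds no annotated exon. For Dnmt1 only 30 bases on the minus strand at chr9:20952824-20952853 are given, because the match falls in an exon of another annotated Dnmt1 transcript.
Uhrf1: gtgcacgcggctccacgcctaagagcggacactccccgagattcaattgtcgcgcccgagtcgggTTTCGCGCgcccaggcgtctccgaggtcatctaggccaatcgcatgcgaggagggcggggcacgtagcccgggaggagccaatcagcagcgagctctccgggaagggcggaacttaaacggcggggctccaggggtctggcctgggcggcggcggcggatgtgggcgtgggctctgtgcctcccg
Uhrf2: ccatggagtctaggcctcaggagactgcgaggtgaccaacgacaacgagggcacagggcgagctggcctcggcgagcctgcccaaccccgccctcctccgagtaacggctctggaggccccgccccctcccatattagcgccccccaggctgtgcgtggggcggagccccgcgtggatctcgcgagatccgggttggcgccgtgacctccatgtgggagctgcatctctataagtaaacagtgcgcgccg
Dnmt1: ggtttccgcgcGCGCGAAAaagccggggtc

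The Uhrf1 match began 185 bases before the start, and the Dnmt1 match, in reverse orientation, began 219 bases before its start. No spelling was found in the Uhrf2 window, in the other Uhrf1 window, in the other 2 Dnmt1 windows or in the windows of Dnmt3a, Dnmt3b, Tet1, Tet2 and Tet3. Of the genes with no match, Dnmt3a, Tet1 and Tet3 rose in tumors, while Uhrf2, Dnmt3b and Tet2 did not pass the test. Of all 32851 promoter windows in the table, 1.86% held at least 1 match. The windows differed in CpG content, the substrate of these enzymes. The Uhrf1 window with the match held 30 CpGs, the Uhrf2 window 23 and the Dnmt1 window with the match 26, against a median of 6 over all windows. The other Uhrf1 window held 10 and the other 2 Dnmt1 windows 7 and 2. The Dnmt3a windows held 38, 40 and 15, that of Dnmt3b 21, that of Tet1 15 and that of Tet3 17. The Tet2 window held 51, more than 99.9% of all windows.

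Among the de novo enzymes, Dnmt3a (ENSMUSG00000020661) measured 2526, 1558, 2122, 1366 and 2771 normalized counts in the normal lungs, in order. Tumors ran from 5800 in tumor 7 through a median of 6765 to 8098 in tumor 6. The groups were well apart, and the tumors varied less than the normal lungs, with an SD of 0.18 log2 units against 0.44. Dnmt3a rose by 1.80 (SE 0.18, adjusted p = 1.63e-06), a 3.49-fold difference. Normal lungs 2 and 4 held the lowest pair of values among the normal lungs for Dnmt3a, and also for Dnmt1, Dnmt3b, Uhrf1 and Tet3.

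Dnmt3b (ENSMUSG00000027478), the other de novo enzyme, measured 98.0, 96.8, 100.1, 74.8 and 109 normalized counts in the normal lungs, in order. Tumors ran from 85.8 in tumor 7 through a median of 114 to 163 in tumor 5. In 4 tumors it was above all normal lungs and in 3 it was within their range. The log2 fold change of 0.27 (SE 0.23, 95% interval -0.24 to 0.77, adjusted p = 0.338) did not pass the test, and its upper bound was below the change measured for Dnmt3a.

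The Tet genes differed among themselves. Tet1 (ENSMUSG00000047146), which carries a CXXC domain that binds unmethylated CpGs, measured 123, 134, 181, 162 and 210 normalized counts in the normal lungs, in order. Its tumor values ran from 468 in tumor 7 through a median of 927 to 1597 in tumor 3. All tumors were above all normal lungs, but they were spread over 0.67 log2 units (SD), the widest of the 9 genes. Tet1 rose by 2.55 (SE 0.30, adjusted p = 8.42e-06), a 5.85-fold difference.

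Tet2 (ENSMUSG00000040943), which has no CXXC domain of its own and is often mutated in blood cancers, measured 1217, 1168, 1019, 820 and 1165 normalized counts in the normal lungs, in order. Tumors ran from 683 in tumor 4 through a median of 1358 to 1587 in tumor 2. One tumor was below all normal lungs, 5 were above them and 1 was within their range. The log2 fold change was 0.17 (SE 0.20, 95% interval -0.26 to 0.60, adjusted p = 0.484).

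Tet3 (ENSMUSG00000034832), the third dioxygenase of the family, measured 3390, 2283, 2463, 1959 and 3850 normalized counts in the normal lungs, in order. Tumors ran from 3404 in tumor 7 through a median of 4582 to 5339 in tumor 1. Values of 6 tumors were above all normal lungs, and that of tumor 7 lay between normal lungs 1 and 5. Tet3 rose by 0.72 (SE 0.18, adjusted p = 0.00315), less than a doubling.

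Mbd2 (ENSMUSG00000024513), the reader, measured 2008, 2205, 2253, 2463 and 2065 normalized counts in the normal lungs, in order. Tumors ran from 574 in tumor 2 through a median of 1103 to 1515 in tumor 7. Every tumor was below every normal lung, and the tumors were more spread than the normal lungs, with an SD of 0.45 log2 units against 0.12. The log2 fold change of Mbd2 was -1.11 (SE 0.20, adjusted p = 3.42e-04), a level 2.15-fold lower in tumors.

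**Figure D2:**
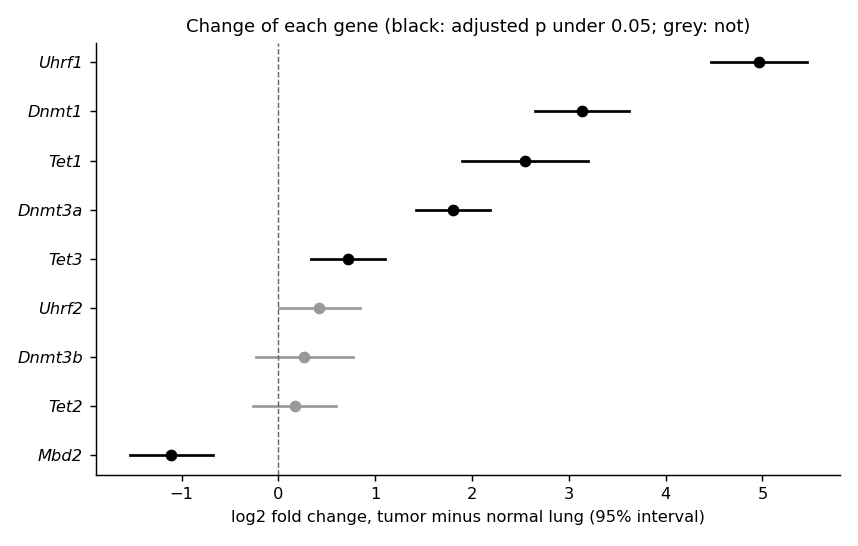
Log2 fold change of each gene, tumor minus normal lung, from limma, with its 95% interval, black where the adjusted p was under 0.05 and grey where it was not. The order runs from Uhrf1 at 4.96 down to Mbd2 at -1.11, and the intervals of Dnmt3b and Tet2 include 0.

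Tumor 7 had the lowest value of the 7 tumors for 6 of the 9 genes (Dnmt1, Dnmt3a, Dnmt3b, Uhrf1, Tet1 and Tet3) and the highest for Mbd2. The share of all genes that were lowest in tumor 7 is not given here, so nothing particular to the 9 genes is read from that count. Tumor 7 also had the highest summed leukocyte markers of the tumors, 12489 normalized counts, where the other tumors had 379 to 3323. In addition it had the lowest summed neuroendocrine markers (23106, against 37119 to 107256) and the lowest summed replication genes (13702, against 19717 to 29824). Its cardiac markers summed to 25648 (123 to 1584 in the other tumors) and its fibroblast markers to 20448 (2099 to 15181), lists of which 0 of 4 and 1 of 4 tested genes fell in tumors. Tumor 1, the other tumor titled trachea, did not share most of these traits. It had the lowest value for 0 of the 9 genes, the highest for Tet3, the highest neuroendocrine sum and the lowest cardiac and fibroblast sums. The part of these differences in the values of tumor 7 was not tested. Without tumor 7 the log2 fold changes were 5.05 for Uhrf1, 3.29 for Dnmt1, 2.71 for Tet1, 1.85 for Dnmt3a, 0.78 for Tet3 and -1.20 for Mbd2, and all 6 calls remained.

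Levels were compared between genes after division by the annotated exon length of each gene (GENCODE release M21). In normal lung Mbd2 was the highest of the 9, at 684 ± 55.5 normalized counts per kb (SD, n = 5), and its lowest library was above the highest library of every other gene. Tet3 followed at 167 ± 47.7, Uhrf2 at 145 ± 11.99, Dnmt3a at 124 ± 36.3 and Dnmt1 at 88.5 ± 20.1, and the ranges of neighbours in this run overlapped. Tet2 was at 63.9 ± 9.61, overlapping Dnmt1. Dnmt3b (18.8 ± 2.49) and Uhrf1 (18.7 ± 7.02) overlapped, and Tet1, at 10.5 ± 2.29, overlapped Uhrf1 but not Dnmt3b. Uhrf2 thus exceeded Uhrf1 in every normal lung on this scale.

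In tumors Dnmt1 was the highest, at 787 ± 191 normalized counts per kb (SD, n = 7), and Uhrf1 was next at 574 ± 131. Dnmt3a followed at 421 ± 50.8, Mbd2 at 329 ± 92.0, Tet3 at 269 ± 37.6 and Uhrf2 at 201 ± 48.4, with overlapping ranges between neighbours throughout. Tet2 (73.3 ± 17.6) and Tet1 (66.0 ± 28.7) overlapped each other and lay below the range of Uhrf2. Dnmt3b was the lowest at 23.1 ± 6.15, with its highest library just above the lowest of Tet1. These lengths count all annotated exons of a gene, so transcripts that use fewer exons are under-stated.

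**Figure D3:**
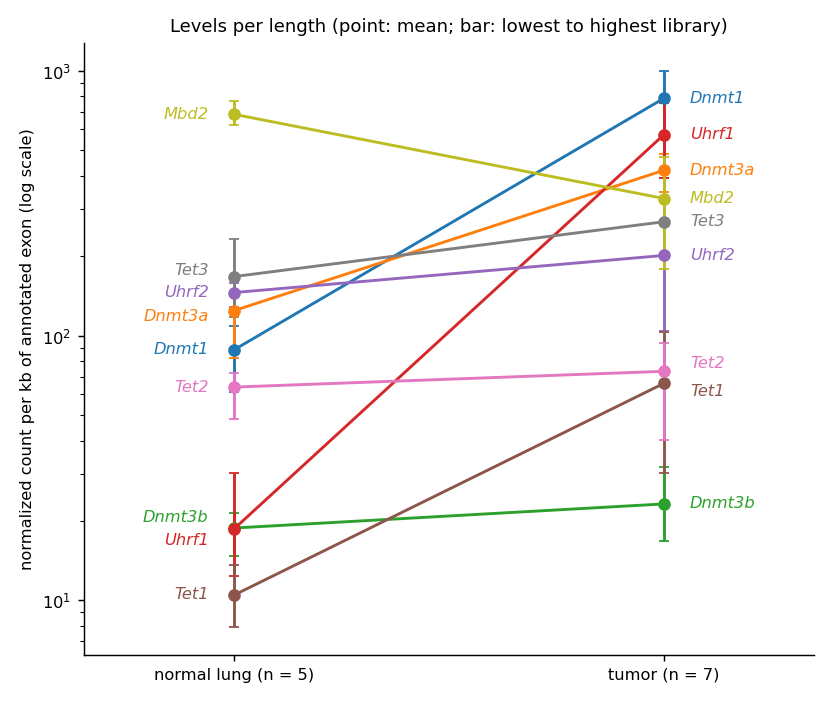
Level of each gene in normalized counts per kb of annotated exon, on a log scale, as the mean of the 5 normal lungs and of the 7 tumors, with bars from the lowest to the highest library. Mbd2 leads in normal lung at 684, Dnmt1 and Uhrf1 lead in tumors at 787 and 574, and Uhrf1 starts beside Dnmt3b.

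Ratios taken within each library do not move with the scaling of that library. They are log2 ratios of values that are not corrected for length, so they can be compared between samples only. In all, 7 ratios were computed and compared by an exact permutation test (two-sided, 792 arrangements), with adjustment over the 7. The ratios were chosen with earlier results of these data known, and each pairwise difference restates the fold changes of its 2 genes, so the p-values are no independent support for them. The smallest p this design can give is 0.00126, or 0.00147 once adjusted for the 6 ratios that reached it. That value treats the 7 tumors as independent. With tumors of one title number averaged, the exact permutation adjusted p of these 6 ratios was 0.00926. That is again the smallest adjusted value the averaged samples can give for 6 ratios, so it does not measure the size of the differences.

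The log2 ratio of Uhrf1 to Uhrf2 averaged -4.02 ± 0.44 (SD, n = 5) over normal lungs and 0.52 ± 0.50 (SD, n = 7) over tumors. The groups differed by 4.54 (95% interval 3.92 to 5.15, exact permutation adjusted p = 0.00147), with all 7 tumors above all normal lungs. The ratio of Dnmt1 to Dnmt3a rose by 1.33 (0.93 to 1.74), and that of Dnmt3b to Dnmt3a fell by 1.54 (interval -1.89 to -1.17). Tet1 rose by 2.38 (1.5 to 3.22) against Tet2 and by 1.83 (1.09 to 2.53) against Tet3. Each of these 4 had an exact permutation adjusted p of 0.00147.

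Since Uhrf1 and Dnmt1 act on newly copied DNA, each was set against the replication genes of the same library. The list was 11 genes in the table, among them the helicase subunits Mcm2 to Mcm7, the sliding clamp Pcna and the primase subunit Prim1. All 11 rose, by 2.30 (Pcna) to 4.48 (Prim1) log2 units, with a median of 3.16. Dnmt1, at 3.13, lay inside that range, and Uhrf1, at 4.96, lay above all 11. Relative to the mean log2 value of the list, Dnmt1 averaged 1.81 ± 0.30 (SD, n = 5) over normal lungs and 1.77 ± 0.21 (SD, n = 7) over tumors. This difference of -0.05 did not pass the test (95% interval -0.37 to 0.29, exact permutation p = 0.759). Uhrf1 was at -1.25 ± 0.29 and 0.53 ± 0.10 on the same scale. The difference of 1.78 (95% interval 1.54 to 2.03, exact permutation adjusted p = 0.00147) means that Uhrf1 rose more than the average replication gene. Across the 7 tumors this ratio stayed between 0.39 and 0.67, tumor 7 included at 0.64, while the normal lungs ran from -1.64 to -0.87.

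**Figure D4:**
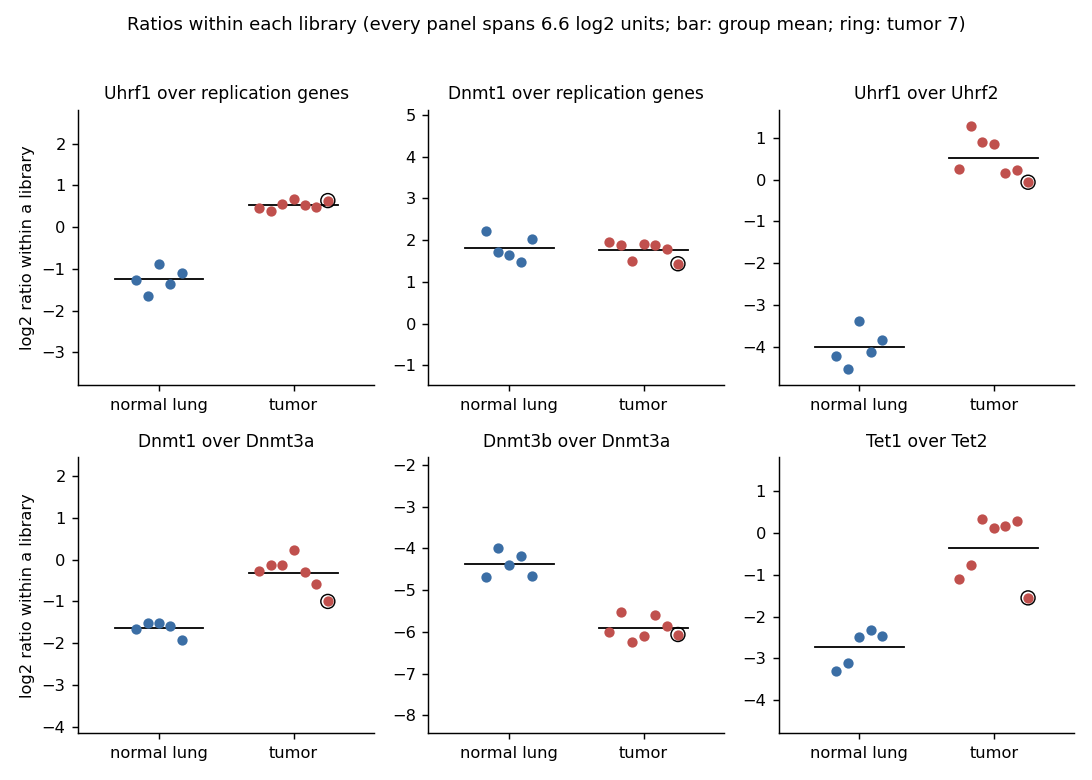
Log2 ratios within each library for 6 of the 7 ratios, normal lungs in blue and tumors in red, with the group mean as a bar and tumor 7 ringed. Every panel spans the same height. Uhrf1 against the replication genes moves from a mean of -1.25 to 0.53, while Dnmt1 against the same genes stays at 1.81 and 1.77.

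The partners of maintenance came next, as a list of 12 genes of which 11 were in the table. Of these, 8 rose and 2 fell, where 31.4% of all genes tested rose and 30.1% fell, with a median log2 fold change of 1.28 against 0.04 over all genes. Pcna, among the 8 that rose, is also on the list of replication genes. Hells, the chromatin remodeler that opens DNA for methylation, rose most, from 51.3 ± 24.1 to 1580 ± 610 normalized counts (4.94, SE 0.35, adjusted p = 5.54e-08). Its activating partner Cdca7 rose by 2.13 (SE 0.22). Lig1, the ligase of the lagging strand and a binding partner of Uhrf1, rose from 81.4 ± 11.1 to 1706 ± 570 (4.31, SE 0.24). Usp7, which protects Uhrf1 and Dnmt1 from degradation, rose by 0.65 (SE 0.13). The 2 that fell were Dnmt3l, a cofactor of de novo methylation in germ cells, and Dppa3, an antagonist of Uhrf1 in the egg. Both were low, Dnmt3l at 18.0 ± 5.48 and 4.56 ± 2.05 normalized counts and Dppa3 at 3.48 ± 1.70 and 1.14 ± 2.35, the latter at 0 in 4 tumors. Zfp57, which guards methylation at imprinted sites, did not pass the test and ran from 16.5 to 1849 across tumors, against 666 to 856 in normal lung.

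Mbd2 was set beside the complex it recruits and beside a list of other MBD and zinc finger genes, called other readers here. Of 13 NuRD genes 10 rose and 0 fell, against 31.4% and 30.1% of all genes, with a median log2 fold change of 1.003. The deacetylases Hdac1 (1.14, SE 0.17) and Hdac2 (1.22, SE 0.15) and the remodeler Chd4 (1.18, SE 0.14) were among them, and Cdk2ap1 rose most (2.04, SE 0.19). Mbd3, the alternative MBD subunit of NuRD that binds methylated DNA weakly, rose by 0.83 (SE 0.24, adjusted p = 0.00894), opposite to Mbd2. Chd3 (-0.65, adjusted p = 0.113), Mta3 (0.41) and Gatad2a (-0.02) did not pass the test. The list of other readers held 8 genes, grouped by family and not by shown binding to methylated CpGs. Of these, 4 rose (Mbd3, Mbd4, Mbd5 and Mbd6), 1 fell and 3 did not pass (Mbd1, Zbtb33 and Zbtb38). Among all genes 31.4% rose and 30.1% fell, and nothing is read from so short a list. The median log2 fold change of this list was 0.35. Mbd4, a glycosylase for mismatches at CpG sites, rose by 1.04 (SE 0.20). The gene of this list that fell was Zbtb4, a zinc finger protein that binds methylated CpGs, from 6842 ± 793 to 947 ± 433 normalized counts (log2 fold change -2.95, SE 0.25, adjusted p = 4.00e-07).

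Of 14 genes of the demethylation route, 6 rose, 3 fell and 5 did not pass the test, with a median log2 fold change of 0.46. Among all genes 31.4% rose and 30.1% fell, and no result is read from the list as a whole. Neil3, a glycosylase of replicating cells, rose from 56.0 ± 25.7 to 2468 ± 908 normalized counts (5.50, SE 0.35, adjusted p = 2.69e-08). Cxxc4 (3.26, SE 0.33) and Cxxc5 (2.10, SE 0.31), which hold CXXC domains related to those of Tet proteins and can bind Tet2, rose as well. Tdg, the glycosylase that removes the oxidised bases made by Tet proteins, changed by 0.50 (SE 0.21, adjusted p = 0.0519) and did not pass. Idh1, a source of the 2-oxoglutarate that Tet proteins consume, fell from 1469 ± 122 to 464 ± 125 normalized counts (log2 fold change -1.70, SE 0.18, adjusted p = 3.18e-06). Ogt, a sugar transferase that binds Tet proteins, fell by 0.71 (SE 0.24) and Gadd45a by 0.61 (SE 0.21). With libraries scaled to the same total, 8 genes of this list rose in place of 6 and 1 fell in place of 3. In edgeR 7 rose and 1 fell.

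A list of 13 germline genes, whose promoters are methylated in most somatic tissue, was also examined, of which 12 were in the table and 8 passed the filter. Of these 8, 4 passed the test, each higher in tumors, where 31.4% of all genes were. The filter partly sets that count, since Taf7l and Stk31 had means under 1 in normal lung and were tested only through their tumor values. Asz1, at 0 to 4.60 normalized counts in normal lung and 0 in all 7 tumors, and Tex101, at 0 to 5.75 and 0 to 0.99, had too low a mean to be tested. No direction of the list is therefore reported, and the levels were low throughout. Taf7l had 10.9 to 46.7 normalized counts in tumors and 0 to 1.62 in normal lung (adjusted p = 3.77e-06). Sycp1, of the synaptonemal complex, had 2.02 to 72.7 and 0 to 5.75 (adjusted p = 0.0432). Stk31 had 3.20 to 22.6 and 0 to 2.30 (adjusted p = 7.80e-04), and Mov10l1 had 1.19 to 15.2 and 0 to 1.62 (adjusted p = 0.0116). Dazl (0 to 5.95 in tumors and 0 to 2.15 in normal lung) and Hormad1 (0 to 8.33 and 0 to 4.23) were low in both groups and did not pass. In edgeR 2 genes of the list passed, both higher in tumors. Methylation itself was not measured in these samples.

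**Figure D5:**
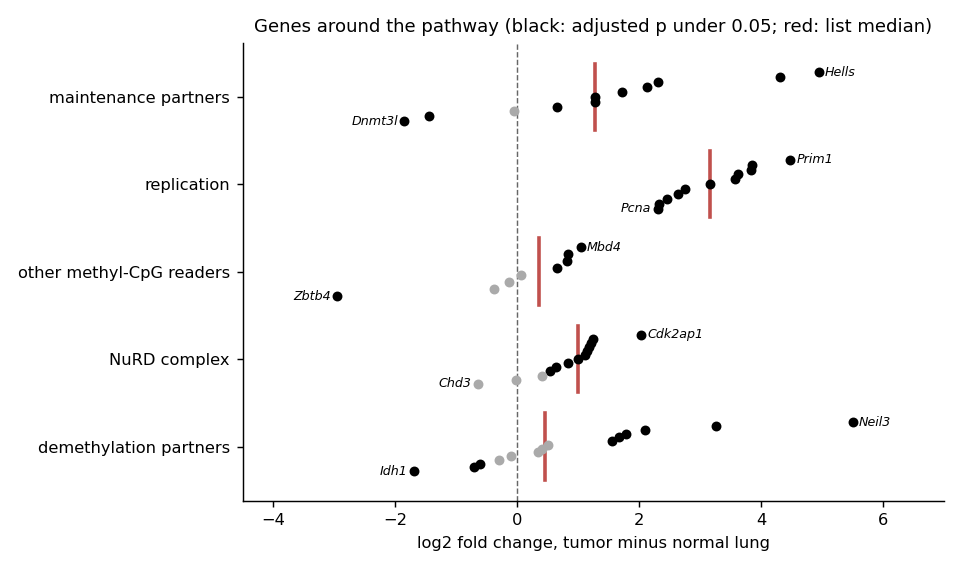
Log2 fold change, tumor minus normal lung, of each tested gene in 5 lists (points; black where the adjusted p was under 0.05, grey where it was not), with the list median as a red line and the lowest and highest gene named. Replication genes lie between 2.30 and 4.48, and Zbtb4 at -2.95 is the lowest point of all lists shown.

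The genes whose pattern over the 12 samples was most like that of each called gene were found among 13552 genes with a symbol and a mean of at least 100, by the root-mean-square difference of centred log2 values. For Uhrf1 these were Rad54b (0.24 log2 units), Mxd3 (0.25) and Racgap1 (0.26). For Dnmt1 they were Wdr76 (0.18), Gsdme (0.20) and Sptb (0.21), and for Dnmt3a they were Sumo2 (0.15), Evl (0.16) and Fbrsl1 (0.17). Tet1 had no gene as close, with Ska2 (0.29), Rapgef4 (0.30) and Stau2 (0.31) the nearest. For Mbd2 they were Pnpla8 (0.14), Cd99l2 (0.16) and Lrrfip1 (0.16). The measure mostly reflects the size of the step between normal lung and tumor.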

How the data were processed

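RNA from 5 normal lungs and 7 tumors was sequenced after poly-A selection, per the labels' protocols. The submitters' processing notes name featureCounts, DESeq2 and the build GRCm39; the aligner, annotation and use of strand are not given in the sources used here. The deposited values are a normalized count signal, as their steps show: 100% of the values of each column lay within 0.01 of a whole multiple of its smallest value, the worth of 1 read. Reads recovered this way from 11 columns served the count tests; tumor 3 was left out of these because a separate check of its steps did not pass. Symbols came from GENCODE M21, which named 29982 of 30399 genes.

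Genes with a mean of 1 or more (23674) entered limma 3.58.1 (lmFit, eBayes with trend; R 4.3.3) as log2(value + 1), with Benjamini-Hochberg adjustment over all of them. The fit was tested on simulated counts. Alternatives were edgeR 4.0.16 with TMM factors (4618 genes called higher and 3767 lower), DESeq2 1.42.0 (5688 and 4756), other scalings, filters and a pseudocount of 0.1, tumors of one title number averaged or correlated, and leaving out samples. None of the 25 same-group pairs of libraries compared matched within sampling noise (chi-square per degree of freedom at least 19.8). Ratios and figures used Python 3.11.15, numpy 2.4.6 and scipy 1.17.1.

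The genes, lists and ratios were chosen with earlier results of these data known. Text names the 9 genes, the extreme genes of each list and those a result turns on, and the 3 closest patterns to each called gene. Listed genes absent from the table (Pclaf, Gins2, Sycp3, Itgam, Tcf21 and Actc1) were not analysed here, and some other genes of the lists are not reported here. Of the 9 genes, Dnmt3b and Tet2 overlap another listed gene on the opposite strand, sharing 0 and 43 exon bases.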

Additional observations from a re-analysis of the deposited data

Results flagged for a closer look

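The highest and lowest sample of each group was set against the others for the 9 genes and 7 ratios, 32 groups in all, by the 95% limit of Dixon's ratio. In all, 2 values stood apart, where chance gives about 1.6. Dnmt1 in tumor 7 was at 11.50 log2 units, below the other tumors at 12.40 to 12.85. Uhrf2 in tumor 2 was at 9.80, below the other tumors at 10.75 to 11.16.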

How the results depend on the processing

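Dnmt1, Dnmt3a, Uhrf1, Tet1, Tet3 and Mbd2 passed an adjusted p of 0.05 in all 24 alternatives, with log2 fold changes of 3.01 to 3.34, 1.67 to 2.01, 4.64 to 5.17, 2.25 to 2.86, 0.60 to 0.93 and -1.27 to -0.90. These include a covariate for the level of Y-linked genes, chosen after seeing the data. With it the changes of Uhrf1 (4.64) and Tet1 (2.25) were the lowest of the alternatives. Of all genes, 5874 then passed as higher and 5758 as lower, against 7430 and 7124 without it. How the Y-linked level was spread over the groups is not reported here. Dnmt3b and Tet2 passed the test in none of the 24 alternatives. Uhrf2 passed it with equal totals (0.63), in edgeR (0.55) and without tumor 2, and ran from 0.35 to 0.57 when each sample was left out. It was lowest with tumors of one title number averaged (0.30). Equal totals moved the median of all genes by 0.19. The ratio of Dnmt1 to the replication genes changed sign with averaged tumors (0.00998), without normal lung 1 (0.0561), without normal lung 5 (0.00596) and without tumor 7 (0.0104), and ran from -0.13 to 0.06 when each sample was left out, never passing the test; the other 6 ratios kept direction and call. In edgeR 3767 genes were lower by at least 1 log2 unit against 5805, with 18308 genes tested. Maintenance partners that fell numbered 1 in edgeR and 1 to 2 when samples were left out, and other readers that fell 2 without the trachea-titled tumors and 1 to 2 when samples were left out. Demethylation genes that fell numbered 1 with equal totals and in edgeR, and 2 to 3 when samples were left out. Those that rose numbered 8 with equal totals and 7 in edgeR, and 6 to 7 when samples were left out. Germline genes that rose numbered 2 in edgeR and 3 to 4 when samples were left out, and 0 to 1 fell. The filter partly sets the germline counts. The cause of the other moves was not tested. No paired analysis was possible because normal lungs and tumors share no title number. Depth limits the germline genes, Dnmt3l and Dppa3, which rest on few reads.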
